A study of Mus musculus with 24 samples.

Results

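The 9 genes described here mark how far a thymocyte has matured and whether it is equipped to leave the thymus: Ccr7, Ccr9, S1pr1, Klf2, Il7r, Cd69, Cd5, Cd24a and Foxp3. They were chosen by name, and the non-control probes whose accession on the array leads to one of them were taken, which gave 1 probe for each gene. They are 9 of 21150 genes with a named probe on the array, which held 28020 named probes among 55681 probes in all. Thymocyte RNA of male and female C57BL/6J mice, 4 to 5 weeks old, was compared on 24 arrays, 3 for each sex and treatment. The mice were not irradiated (control), were given 0.075 Gy of X-rays (low dose), were given 1.75 Gy of γ-rays (high dose), or were given the 0.075 Gy of X-rays and 6 h later the 1.75 Gy of γ-rays, the adaptive regimen called RAR for radio-adaptive response. Per the methods the cells were all that passed a nylon mesh after the thymus was broken up, so no subset was sorted, and the time from irradiation to tissue collection is not given in the sources used here.

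Thymocytes carrying both CD4 and CD8 are tested in the cortex through their T-cell receptor. Cells that pass become single-positive, move to the medulla under the chemokine receptor CCR7, gain the transcription factor KLF2, and leave through the vessels by following sphingosine-1-phosphate with the receptor S1PR1. On the way they lose CD24 and CD69, the second of which holds S1PR1 inside the cell. CD5 is set by the strength of the receptor signal, CCR9 reads a chemokine of the thymic epithelium, IL7R passes the survival signal of interleukin 7, and FOXP3 defines regulatory T cells. Irradiation kills the CD4 CD8 double-positive cells most readily, as is long known of the thymus.

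The values are log2 ratios of the thymocyte signal (Cy5) to the signal of 1 common mouse reference RNA (Cy3) on the same array, so 1 unit is a doubling. Changes are differences of group means averaged over the sexes, from 1 limma fit of all 24 arrays. A gene was called where its p, adjusted over all 55681 probes by Benjamini-Hochberg, was under 0.05 and its level differed by 1.5-fold or more. The words rose, fell and changed are kept for such genes. Low dose, high dose and RAR were each set against the same 6 control arrays, so those comparisons are not independent of one another. The limma p-values rest on the spread between thymocyte samples within groups, pooled over the 8 groups for each probe. The 3 arrays a group limit the precision. The exact permutation p given beside some values is two-sided and shuffled the arrays within each sex. It was computed for 45 values and cannot go below 0.005.

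Among the 3 female RAR arrays, 53.9%, 71.8% and 34.7% of spots were well above background in Cy5, against 49.3% to 62.8% on each of the other arrays. Female RAR 2 and 3 were therefore also left out together, a choice made after seeing the data. The arrays lay on 3 slides, and a fit with the slide as a block was run beside the first. Of the controls of both sexes, only male control 1 shared a slide with any high-dose or RAR array. Against control, the block fit therefore compares these groups within a slide through that array alone. The Cy5 signal of the members was well above background on all 24 arrays, except for Foxp3 with 23. The 8 markers of the T lineage and the 9 of double-positive cells were well above background on all 24 too.

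S1pr1, Klf2 and Ccr7 rose with RAR and Cd24a fell against control, each of them in both sexes. S1pr1 was 2.35-fold higher, Klf2 2.11-fold, Ccr7 1.97-fold, and Cd24a 1.61-fold lower. For each of the 4 genes the 6 RAR arrays lay entirely on one side of the 6 control, the 6 low-dose and the 6 high-dose arrays. How many of all probes separated in this way was not counted, so the separation is only a description of these genes. The other members, Ccr9, Il7r, Cd69, Cd5 and Foxp3, did not pass both limits in this comparison. The 3 members that rose stand beside 12.4% of all probes called higher, and the 1 that fell beside 13.7% called lower. The median change of the 9 members was 0.09, and that of all probes −0.029.

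**Figure D1:**
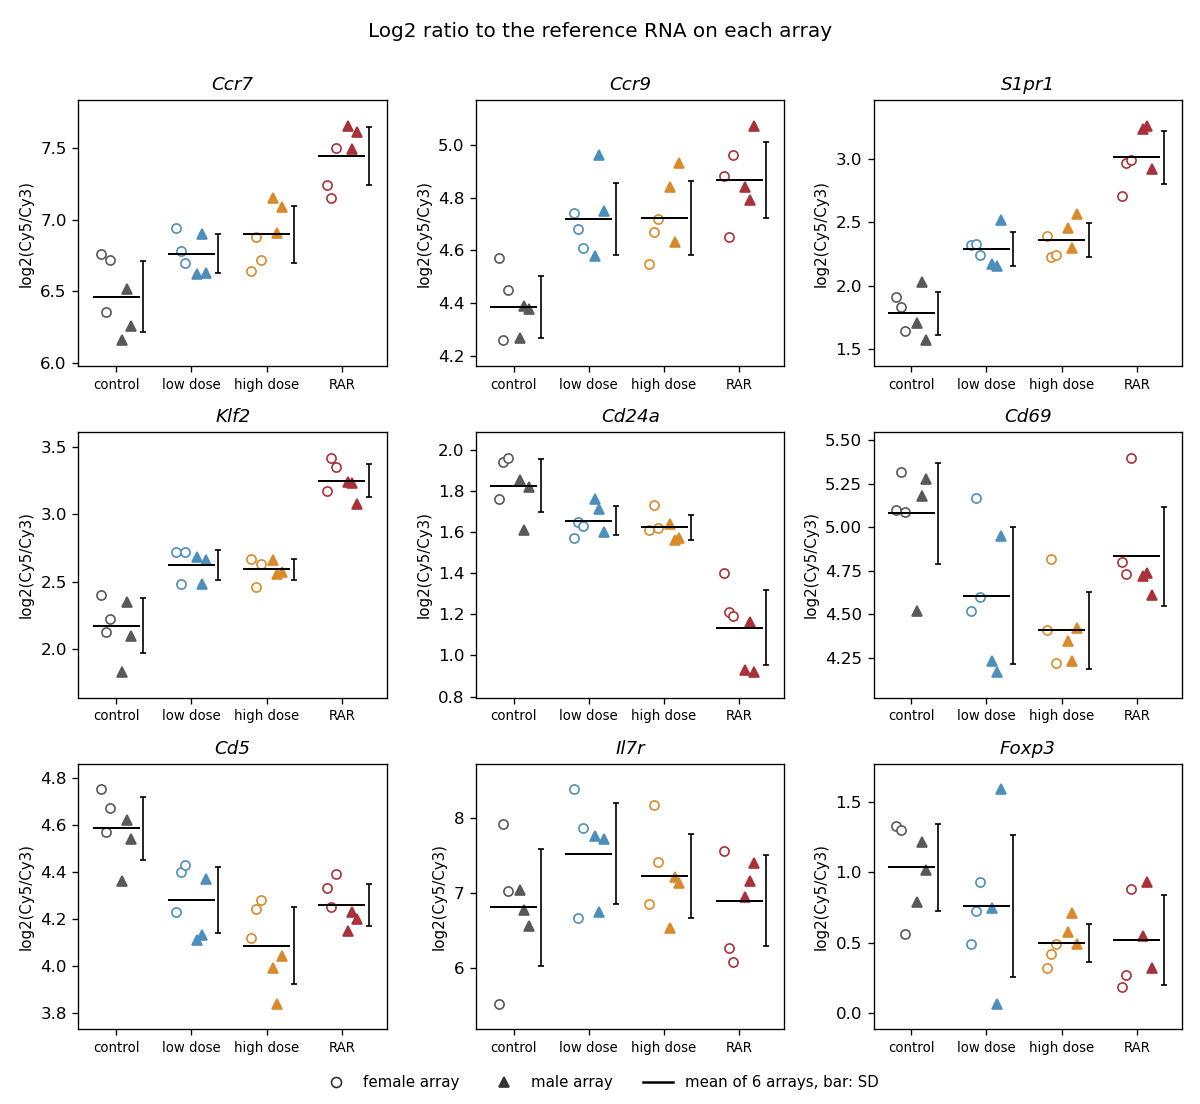
Log2 ratio of Cy5 to Cy3 (vertical axes) of each member on each of the 24 arrays, by treatment, with open circles for females, triangles for males, a line at the mean of 6 arrays and a bar of 1 SD beside it. S1pr1, Klf2 and Ccr7 are highest and Cd24a is lowest on the RAR arrays, Cd5 is lower on all high-dose than on all control arrays, and Il7r and Foxp3 spread widely within groups; the direction of Ccr9 and Foxp3 turns when Cy5 is read alone.

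Klf2 encodes the zinc-finger factor that switches on S1pr1 and other genes of cells ready to leave. Its promoter is shown because Klf2 and S1pr1 moved together, and because MEF2 factors are known to drive Klf2 in other cell types. RefSeq gives the 250 bases before the start of Klf2 at chr8:72318812-72319061 on the plus strand of GRCm38.p6, the build of that table. Capitals mark a pair of GC boxes (GGGCGG, or CCGCCC on the other strand), which do not overlap, and after them a MEF2 element that begins 118 bases before the start:
Klf2 promoter: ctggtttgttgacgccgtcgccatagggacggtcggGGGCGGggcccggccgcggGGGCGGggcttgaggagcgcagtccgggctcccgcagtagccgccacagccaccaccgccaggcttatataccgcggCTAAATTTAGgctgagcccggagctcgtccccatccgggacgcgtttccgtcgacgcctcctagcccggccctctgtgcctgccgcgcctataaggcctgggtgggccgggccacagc

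Of these bases 71.2% were G or C, against a median of 52.4% in all promoter windows of this length. A MEF2 element stood in 167 of 32851 windows (0.508%), and a GC box in 32.7%. Windows were found for 5 members, Klf2, Ccr9, Il7r, Cd5 and Foxp3, the last with a pair of start sites. Among those 6 windows Klf2's was the one with a GC box and the one with a MEF2 element. The letters CACCC, or GGGTG on the other strand, and favoured by KLF factors, stood in 4 of the 6 (Klf2, Ccr9 and both of Foxp3) and in 52% of all windows. The letters GTAAACA of the FOXO factors, or TGTTTAC, stood in 0 of the 6 and in 3.17% of all. A match is a description of letters and not a bound site.

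S1pr1, the receptor for the exit signal, had log2 ratios of 1.91, 1.83 and 1.64 on the female and 1.71, 2.03 and 1.57 on the male control arrays. Under RAR the values were 2.71, 2.97 and 2.99 in females and 3.24, 3.26 and 2.92 in males. Low dose gave 2.32, 2.33 and 2.24 in females and 2.17, 2.16 and 2.52 in males, and high dose 2.39, 2.23 and 2.24, and 2.46, 2.30 and 2.57. Control was thus lowest, RAR highest, and both single doses lay between them without touching either. S1pr1 rose by 1.24 on the log2 scale with RAR (95% confidence interval 1.03 to 1.44, adjusted p = 9.62e-09, exact permutation p = 0.005), which was 2.14-fold in females and 2.59-fold in males. It rose by 0.59 with high dose alone (1.5-fold, adjusted p = 0.000185), just past the fold limit. That call was lost, at 0.54 to 0.58, without any 1 of female control 3, male control 1, male control 3, female high dose 1, male high dose 1 or male high dose 3, and at 0.49 with Cy5 alone. Low dose differed from control by 0.51 (1.42-fold, adjusted p = 0.000797), under the fold limit. RAR was above high dose by 0.65 (1.57-fold, adjusted p = 0.000128) and above low dose by 0.73 (1.65-fold, adjusted p = 3.34e-05). The call against low dose was lost with Cy5 alone (0.58), and that against high dose without female RAR 2 and 3 (0.56).

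Klf2 followed the same order of treatments. Its control values were 2.40, 2.13 and 2.22 in females and 1.83, 2.35 and 2.10 in males, and under RAR they were 3.17, 3.42 and 3.35, and 3.24, 3.23 and 3.08. The single doses lay close together between these, at 2.48 to 2.72 for low dose and 2.46 to 2.67 for high dose. All 6 arrays of either dose were above all 6 controls and below all 6 RAR arrays. Klf2 rose by 1.08 with RAR (interval 0.89 to 1.26, adjusted p = 1.43e-08), by 1.06 in females and 1.09 in males. It was 1.37-fold of control after low dose (0.45, adjusted p = 0.00092) and 1.34-fold after high dose (0.42, adjusted p = 0.0015), both under the fold limit. With the slide as a block the high-dose change was 0.63 and was called. RAR was above high dose by 0.66 (1.58-fold, adjusted p = 4.13e-05) and above low dose by 0.63 (1.54-fold, adjusted p = 5.29e-05). The second of these lost its call at 0.58 without female low dose 2, at 0.55 without female RAR 2 and 3 and at 0.54 with Cy5 alone.

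Ccr7, the receptor that draws cells into the medulla, had control values of 6.76, 6.36 and 6.72 in females and 6.16, 6.52 and 6.26 in males. Under RAR they were 7.24, 7.15 and 7.50 in females and 7.65, 7.49 and 7.61 in males. High dose gave 6.64, 6.88 and 6.72 in females and 7.15, 6.91 and 7.09 in males. The female high-dose arrays overlapped their controls, and the male ones were all above theirs. Ccr7 rose by 0.98 with RAR (interval 0.77 to 1.18, adjusted p = 1.4e-07), by 0.69 in females and 1.27 in males. High dose was called in males (0.73, adjusted p = 0.000934) and not in females (0.14, adjusted p = 0.63). RAR was above low dose by 0.68 (1.60-fold, adjusted p = 5.77e-05), while its 1.46-fold difference from high dose (0.54, adjusted p = 0.000512) stayed under the fold limit although the groups did not overlap. With Cy5 alone the difference from low dose was 0.50 and not called.

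Cd24a encodes the heat-stable antigen, abundant on immature thymocytes and lost late in maturation. On the control arrays it stood at 1.76, 1.94 and 1.96 in females and 1.85, 1.61 and 1.82 in males. Under RAR it stood at 1.40, 1.21 and 1.19 in females and 0.93, 1.16 and 0.92 in males. Its low-dose range was 1.57 to 1.76 and its high-dose range 1.56 to 1.73, each overlapping control and lying above every RAR array. Cd24a fell by 0.69 with RAR (interval −0.83 to −0.54, adjusted p = 1.65e-07), by 0.62 in females and by 0.76 in males. After low dose it was −0.17 (adjusted p = 0.0909) and after high dose −0.20 (1.15-fold, adjusted p = 0.0432) from control, and neither was called. RAR was 1.40-fold below high dose (−0.49, adjusted p = 6.39e-05) and 1.43-fold below low dose (−0.52, adjusted p = 2.83e-05), under the fold limit. Within males both were called (−0.59, adjusted p = 0.000786, and −0.69, adjusted p = 9.23e-05), and within females neither was (−0.39 and −0.35). Averaged over the sexes, the difference from low dose was called with the slide as a block (−0.61) and with Cy5 alone (−0.63). Normexp background correction with loess gave −0.55 for RAR against control, under the fold limit.

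**Figure D2:**
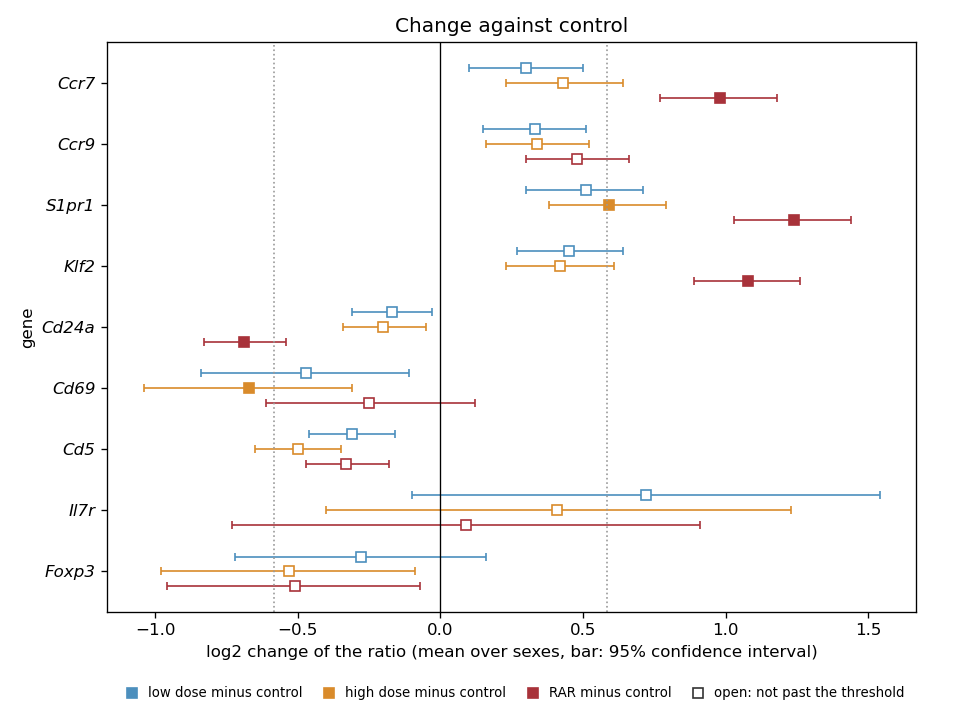
Log2 change of the ratio against control (horizontal axis) for each member after low dose, high dose and RAR, as the mean over the sexes with its 95% confidence interval; filled squares passed the adjusted p and the 1.5-fold limit shown by the dotted lines. RAR is farthest from control for S1pr1 (1.24), Klf2 (1.08), Ccr7 (0.98) and Cd24a (−0.69), while Cd5 and Cd69 are farthest after high dose; the changes of Ccr9 and Foxp3 turn sign with Cy5 alone.

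These RNA changes come from a mixed suspension, and fewer cells of a type and less RNA per cell cannot be told apart in it. Markers of myeloid and dendritic cells moved along with the 4 called members: 8 of 10 rose with RAR and 0 fell, with a median of 1.41. Of all probes 12.4% were called higher and 13.7% lower in that comparison. Cd68, a macrophage glycoprotein, rose by 1.96, and S100a8, a neutrophil protein, by 2.58. The summed Cy5 signal of the 10 markers, in units of each array's 75th percentile, was 121 to 200 in control, 250 to 425 after low dose, 214 to 420 after high dose and 509 to 623 under RAR. 9 of the 10 were well above background on all 24 arrays. Their part in the rise of S1pr1, Klf2 and Ccr7 was not tested. Double-positive markers summed to 657 to 804 in control and 344 to 507 under RAR, with 606 to 802 after low dose and 623 to 747 after high dose. T-lineage markers summed to 1250 to 1490 in control, 1020 to 1220 after low dose, 968 to 1130 after high dose and 766 to 989 under RAR. These sums read Cy5 alone. By ratio the list medians with RAR were 0.04 for double-positive and 0.17 for T-lineage markers. On that scale 2 double-positive markers rose (Rag1 and Arpp21) and 1 fell (Ptcra) of 9, and 2 T-lineage markers rose (Cd3d and Cd2) of 8, but all 4 that rose lay below control with Cy5 alone.

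The markers of other cell types moved less. Of 8 endothelial markers 0 rose and 3 fell with RAR, of 7 B-cell markers 1 rose and 4 fell, and of 8 thymic epithelial markers 1 rose and 3 fell. Among 5 stromal markers 1 rose and 0 fell, and the same counts held for 5 erythroid markers. These counts stand beside 12.4% of all probes called higher and 13.7% called lower. The counts for endothelial markers were 0 and 0 with normexp and loess, and 2 higher and 0 lower with Cy5 alone. For thymic epithelial markers both of these settings gave 1 higher and 1 lower. Of all 55681 probes normexp with loess called 7234 and Cy5 alone 26431. Many of these probes were dim, with 3 of 7 B-cell, 2 of 8 endothelial and 2 of 8 thymic epithelial markers well above background on all 24 arrays.

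Cd69, the early activation antigen that keeps S1PR1 off the surface, was called after high dose and not after RAR. Its control values were 5.10, 5.32 and 5.09 in females and 4.52, 5.18 and 5.28 in males. High dose gave 4.41, 4.82 and 4.22, and 4.35, 4.23 and 4.42. Within each sex all high-dose arrays lay below all controls, and pooled over the sexes 5 of 6 did, since female high dose 2 lay above male control 1. Cd69 fell by 0.67 with high dose (1.59-fold, interval −1.04 to −0.31, adjusted p = 0.00746, exact permutation p = 0.005). The fall was −0.28 and not called with the slide as a block (adjusted p = 0.671), −0.52 with normexp and loess and −0.58 with Cy5 alone, both under the fold limit. On the 1 slide that held male arrays of both groups the difference was −0.20, with 2 high-dose arrays against male control 1. Under RAR the values were 4.80, 4.73 and 5.40 in females and 4.72, 4.74 and 4.61 in males, which overlapped control. The change with RAR was −0.25 (interval −0.61 to 0.12, adjusted p = 0.297), and it was 0.14 with the slide as a block. Low dose gave −0.47 (adjusted p = 0.06), which was called without male control 1 (−0.59) or male low dose 3 (−0.60).

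Cd5, a brake on T-cell receptor signals whose level follows the strength of that signal, was 4.36 to 4.75 in control. It was 3.84 to 4.28 after high dose, below every control, 4.11 to 4.43 after low dose and 4.15 to 4.39 under RAR. The differences from control were −0.50 after high dose (1.41-fold, adjusted p = 3.21e-05), −0.31 after low dose (1.24-fold, adjusted p = 0.00332) and −0.33 under RAR (1.25-fold, adjusted p = 0.000906). Each passed the adjusted p and missed the fold limit. With Cy5 alone they were −0.92, −0.71 and −0.89, and all 3 were called. RAR and low dose differed by −0.02 (adjusted p = 0.908), and RAR and high dose by 0.17 (adjusted p = 0.0901).

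Ccr9, the receptor for the thymic epithelial chemokine CCL25, is the member whose direction depends most on how the channels are read. Its log2 ratio was 4.26 to 4.57 in control, 4.58 to 4.96 after low dose, 4.55 to 4.93 after high dose and 4.65 to 5.07 under RAR. By ratio it was above control by 0.33 (adjusted p = 0.00855), 0.34 (adjusted p = 0.00696) and 0.48 (1.39-fold, adjusted p = 0.000168), under the fold limit, whereas Cy5 alone put it below control by −0.20, −0.31 and −0.97, the last of them called. The Cy3 signal of the Ccr9 spot, which comes from the same reference RNA on every array, also moved with treatment. On a log2 scale relative to the array's 75th percentile it was 1.91 to 2.36 in control and 0.38 to 1.03 under RAR. Cy5 on the same scale was 6.37 to 6.61 in control and 5.30 to 5.94 under RAR. Both channels of this spot were thus lower under RAR, Cy3 more so, and the cause was not tested. Scaled Cy3 was also lower under RAR for Klf2 (0.59 to 0.85, control 0.93 to 1.11) and Cd24a (2.36 to 2.53, control 2.65 to 2.73). For Cd5 it was 1.31 to 1.47, against 1.88 to 2.04 in control. Its median was −0.46 against −0.32 for S1pr1 and −1.66 against −1.56 for Ccr7, and was not lower for Foxp3, Il7r and Cd69. A lower Cy3 raises a ratio, and its part in these changes was not tested.

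Foxp3, the lineage factor of regulatory T cells, was the dimmest member. Its log2 ratio was 1.33, 1.30 and 0.56 on the female and 0.79, 1.22 and 1.02 on the male control arrays. High dose gave 0.32 to 0.71 and RAR 0.19 to 0.93. The ratio was below control by −0.53 after high dose (interval −0.98 to −0.09, adjusted p = 0.0769) and −0.51 under RAR (interval −0.96 to −0.07, adjusted p = 0.0632), not called, while Cy5 alone put it above control by 0.51 and 0.59, the second of which was called (adjusted p = 0.000227). The RAR value became a call without female control 3 (−0.64), female RAR 3 (−0.62) or male RAR 2 (−0.60), and the high-dose value without female control 3 (−0.66). In the Foxp3 spot the median Cy3 signal, relative to the 75th percentile, was −2.79 in control and −1.63 under RAR.

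Il7r, the alpha chain of the interleukin-7 receptor, varied too much for a comparison of ratios. Its control values alone ran from 5.52 to 7.92, and those under RAR from 6.07 to 7.56. The change with RAR was 0.09 with an interval of −0.73 to 0.91 (adjusted p = 0.89), and with low dose 0.72 (interval −0.10 to 1.54, adjusted p = 0.235). Within groups the SD of the ratio was 0.702, against 0.213 for the scaled Cy5 signal. Cy5 of Il7r was well above background on 24 arrays and Cy3 on 4, so the reference signal in the ratio was mostly near background. With Cy5 alone RAR was above control by 0.47, not called, and at −0.05 relative to the median change of all probes in that setting. With normexp and loess RAR was above control by 0.66 (adjusted p = 2.56e-06), which was called.

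**Figure D3:**
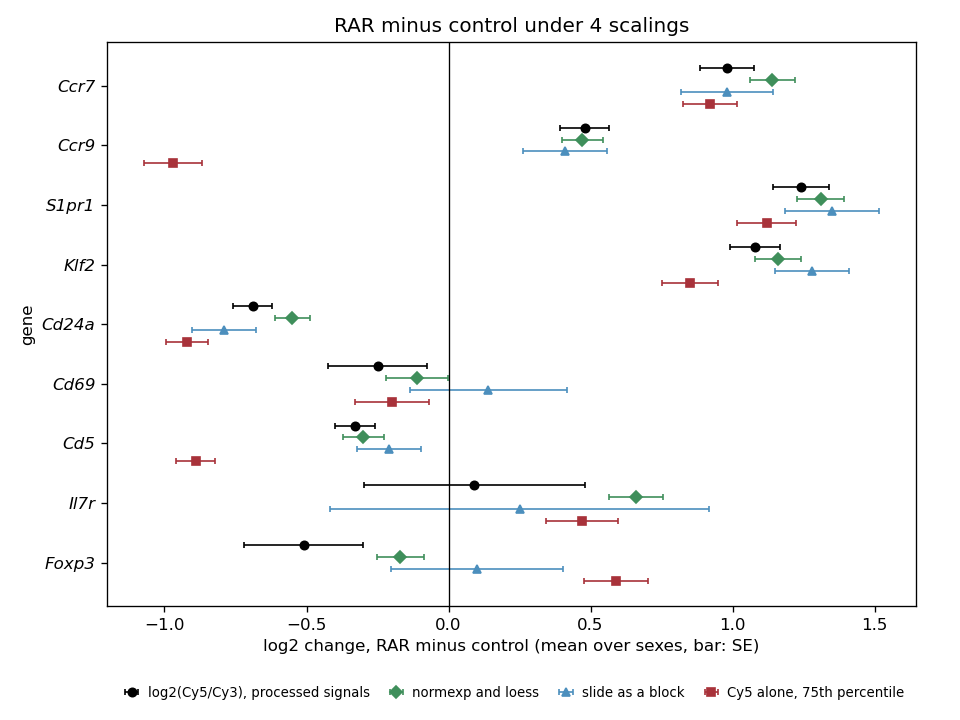
Log2 change between RAR and control (horizontal axis, mean over the sexes, bar 1 SE) of each member under 4 ways to process the arrays. S1pr1, Klf2, Ccr7 and Cd24a lie on the same side of 0 in all 4, while Ccr9 and Foxp3 change side with Cy5 alone, Foxp3 and Cd69 with the slide as a block.

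Of the ways to read the arrays, Cy5 alone moved the whole array most. The median change of all probes between RAR and control was 0.523 with it, against −0.029 by ratio, and 70.6% of the probes called were higher, against 47.6% by ratio and 66.7% with normexp and loess. With Cy5 alone S1pr1 was at 1.12, Klf2 at 0.85, Ccr7 at 0.92 and Cd24a at −0.92, all called. Relative to the shift of the median probe, S1pr1 was at 0.59, Klf2 at 0.33, Ccr7 at 0.40 and Cd24a at −1.44, so that Klf2 and Ccr7 were then under 1.5-fold. On that relative scale Foxp3 was at 0.07 and Ccr9 at −1.49. With the slide as a block the 4 genes were at 1.35, 1.28, 0.98 and −0.79, and without female RAR 2 and 3 at 1.15, 1.01, 0.95 and −0.62, all called. On the 1 slide with male arrays of both groups, 1 RAR against 1 control array, they differed by 1.54, 1.41, 1.49 and −0.91. Leaving out each array in turn gave 1.19 to 1.30 for S1pr1, 1.01 to 1.14 for Klf2, 0.91 to 1.03 for Ccr7 and −0.73 to −0.66 for Cd24a.

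By counts, 0 of the 9 members were called after low dose, where 5.09% of all probes were called higher and 4.83% lower. An unadjusted p under 0.05 in limma was reached by 7 members, and by 16940 of all 55681 probes. After high dose 2 were called, S1pr1 higher and Cd69 lower, where 5.89% of probes were higher and 5.63% lower. RAR differed from high dose in 2 members, S1pr1 and Klf2, where 5.29% of probes were higher and 4.23% lower. It differed from low dose in 3, Ccr7, S1pr1 and Klf2, where 4.78% were higher and 4.29% lower. With Cy5 alone none of these 3 was called against low dose, and the 2 members called were Ccr9 (−0.77) and Cd24a (−0.63), both lower. That setting called 8995 of all probes in this comparison. By ratio, 8, 6 and 4 members had an unadjusted p under 0.05 for high dose against control, RAR against high dose and RAR against low dose. Of all probes 18311, 18002 and 17071 did so. The median changes of the 9 members were 0.30, 0.34, 0.17 and 0.15 in these 4 comparisons, and those of all probes −0.015, −0.016, −0.022 and −0.013.

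The study asked whether the response to RAR differs between the sexes. Between male and female RAR 0 of the 9 members were called, where 0.343% of all probes were higher and 0.0952% lower in males. An unadjusted p under 0.05 in limma was reached by 1 member and by 6591 of the 55681 probes. Ccr7 was 0.28 higher in RAR males than in RAR females (interval −0.00 to 0.57, adjusted p = 0.425) and Cd24a −0.26 (interval −0.47 to −0.06, adjusted p = 0.294). For Ccr7 the sex difference under RAR exceeded that in control by 0.58 (interval 0.18 to 0.98, unadjusted p = 0.00739, adjusted p = 0.543), since control males were 0.30 below control females. Against the sex difference in high dose it was −0.02 (interval −0.42 to 0.39). For S1pr1 and Klf2 the same difference against control was 0.27 (interval −0.14 to 0.68) and 0.03 (interval −0.34 to 0.40). For Cd24a the sex difference under RAR against that in low dose was −0.34 (interval −0.63 to −0.05, unadjusted p = 0.0239, adjusted p = 0.637). The interaction of sex and treatment had adjusted p-values from 0.719 for Ccr7 to 0.988 for Cd69, with Ccr7 the 1 member at an unadjusted p under 0.05. Of all probes 2 passed the adjusted limit for the interaction, and 3611 had an unadjusted p under 0.05. For the sex difference under RAR against that in control, high dose and low dose, 0, 2 and 0 of all probes were called. The lack of such calls in this fit is thus shared by almost every probe and is not particular to the members. Per its methods, the study removed outlying values that lay farther from the mean of their condition. With each group's farthest value dropped, which narrows the spread by construction, Ccr7 and Il7r were called in the sex difference against control. That setting called 11870 of all 55681 probes in the same contrast.

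Other genes of the same pathways were read from lists chosen by function. Their counts with RAR stand beside 12.4% of all probes called higher and 13.7% called lower by ratio. With Cy5 alone 26431 of all 55681 probes were called in that comparison, 18651 of them higher. Among 15 genes of egress and guidance, 4 rose with RAR and 1 fell, with a list median of 0.10. Foxo1, the factor upstream of Klf2 and Il7r, rose by 0.85 (adjusted p = 7.69e-07). Itgb7, an integrin chain, rose by 0.68 (0.45 and not called with Cy5 alone), and Ripor2, a brake on RhoA in migrating cells, by 0.99. Ccr4, a chemokine receptor of early single-positive cells, fell by 1.88 (adjusted p = 3.17e-09), after a fall of 1.17 with low dose and of 1.43 with high dose. With Cy5 alone the list had 2 higher and 4 lower and a median of −0.23.

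Of 10 measured genes for the ligands and for making or degrading sphingosine-1-phosphate, 3 rose and 2 fell with RAR, with a median of 0.22. Sphk1, a kinase that makes sphingosine-1-phosphate, rose by 2.53 (SE 0.150, adjusted p = 3.12e-10), by 0.76 with low dose and by 1.18 with high dose. Sgpl1, the lyase that degrades it, rose by 0.65, and Ccl19, a ligand of CCR7, by 0.63. Spns2, the transporter that releases it from endothelium, fell by 0.90, and Ccl25, the ligand of CCR9, by 1.14. The fall of Spns2 was −0.25 and not called with normexp and loess, and the rise of Sgpl1 was 0.43 and not called with Cy5 alone, which gave 2 higher and 3 lower.

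Among 27 genes of single-positive maturation 9 rose and 4 fell with RAR, with a median of 0.18. Zbtb7b, the factor of the CD4 lineage, rose by 1.24 (adjusted p = 3.97e-09) and was above high dose and above low dose by 0.79 each. The genes Il6ra at 1.61, Ms4a4b at 1.14, Slfn2 at 1.12, Gimap4 at 0.75, Cd52 at 0.65 and Cd53 at 0.59 are known from mature T cells, although Il6ra and Cd53 are also expressed by myeloid cells. Cd8b1 at 0.68 and Satb1 at 0.73 rose by ratio, but lay at −0.83 and −0.76 with Cy5 alone, where Cd52 was at 0.01. The 4 that fell were Tox at −1.13, a factor of positive selection, Themis at −0.75, a regulator of receptor signalling, Cd28 at −0.64, a costimulatory receptor, and Gata3 at −0.60, a factor of the CD4 lineage. With normexp and loess Cd28 was at −0.54 and Gata3 at −0.50, neither called. With Cy5 alone the list counted 7 higher and 13 lower, with a median of −0.50.

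**Figure D4:**
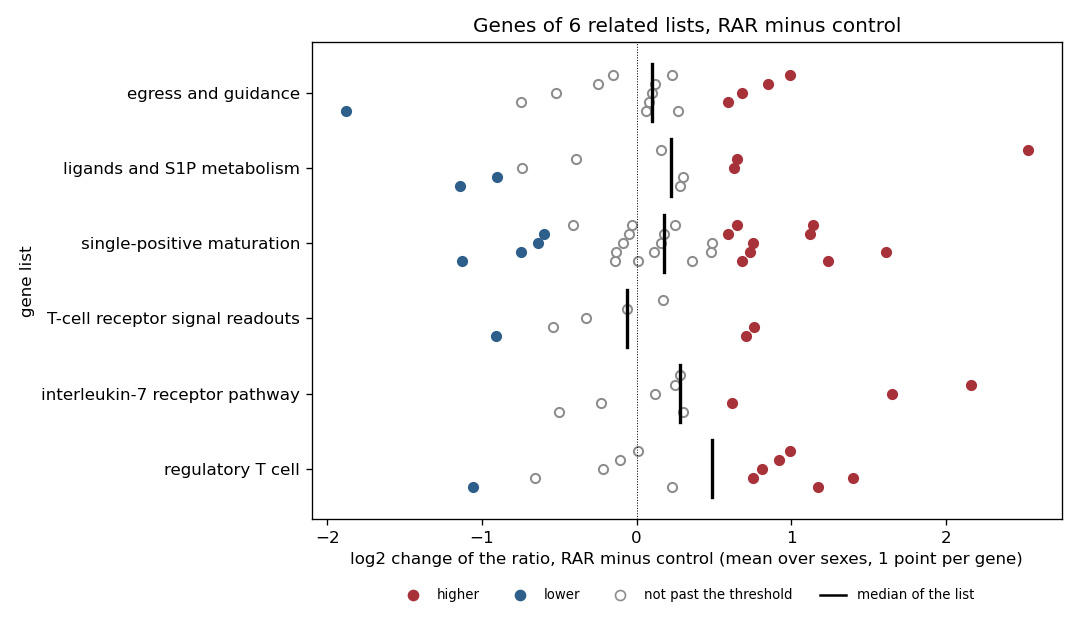
Log2 change of the ratio between RAR and control (horizontal axis, mean over the sexes) of each measured gene of 6 related lists, with filled points past both limits and a line at each list's median. Sphk1 (2.53), Cish (2.16), Jak3 (1.65) and Il6ra (1.61) lie farthest to the right and Ccr4 (−1.88) farthest to the left; Cd8b1 and Satb1 lie on the other side of 0 with Cy5 alone.

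In the interleukin-7 receptor pathway 3 of 9 genes rose and 0 fell with RAR, with a median of 0.28. Cish, a feedback inhibitor induced by STAT5, rose by 2.16 (adjusted p = 7.49e-11), by 1.67 with low dose and by 1.74 with high dose. Jak3, the kinase on the common gamma chain, rose by 1.65, by 0.81 with low dose and by 1.06 with high dose. Mcl1, a survival protein, rose by 0.62 with RAR (0.34 and not called with Cy5 alone). Bcl2 at 0.28, Il2rg at 0.25 and Stat5b at −0.50 were not called. With Cy5 alone 2 were higher and 1 lower, with a median of −0.15.

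Of 7 genes that read the T-cell receptor signal, 2 rose and 1 fell with RAR, with a median of −0.06. Nr4a1, an early response factor, rose by 0.71 and Itm2a, a membrane protein of selected thymocytes, fell by 0.91. Nr4a3 at 0.76 was well above background on 0 arrays. With Cy5 alone Nr4a1 was at 0.29 and not called, and the list had 2 higher (Egr3 and Nr4a3) and 3 lower (Itm2a, Rasgrp1 and Tespa1).

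Of 12 genes of regulatory T cells other than Foxp3, 6 rose and 1 fell with RAR, with a median of 0.49. Of these genes 5 rose and 1 fell after low dose, where 5.09% of all probes were called higher and 4.83% lower. After high dose 4 rose and 1 fell, where 5.89% of all probes were called higher and 5.63% lower. The TNF receptor family members Tnfrsf9, Tnfrsf4 and Tnfrsf18 rose by 1.40, 1.17 and 0.81 with RAR. Ikzf4, a zinc-finger partner of FOXP3, rose by 0.99, Lrrc32, which presents latent TGF-β, by 0.92, and Il2rb, a chain of the interleukin-2 receptor, by 0.75. Nrp1, a surface receptor of thymus-derived regulatory cells, fell by 1.06 (−0.46 and not called with normexp and loess). Several of these genes are also expressed by activated T cells or other cells, and Ikzf2 was at −0.22. Il2ra, another chain of that receptor, was at −0.11 by ratio and not called, but was called lower with normexp and loess (−0.65) and with Cy5 alone (−1.01). With Cy5 alone the list had 5 higher and 2 lower.

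Across the 24 arrays, among 9954 genes, the ratios most like those of S1pr1 were of Vim (Pearson r = 0.977) and Ecm1 (r = 0.976). Klf2 came closest to Emc9 (r = 0.963) and Vim (r = 0.954), Ccr7 to Bcl2a1d and H2-K1 (r = 0.945 for both), and Cd24a to Nhej1 (r = 0.958) and Cdc16 (r = 0.956). Ccr9 came closest to Satb1 (r = 0.933) and Rag1 (r = 0.925), Cd5 to Eml4 (r = 0.908), Cd69 to Eml4 (r = 0.790) and Il7r to Foxn3 (r = 0.736). The arrays share slides, treatments and the reference RNA, so these values are descriptions. With the group means removed, r was 0.55 between Klf2 and S1pr1, −0.58 between Cd24a and Klf2, 0.62 between Cd5 and Cd69 and 0.76 between Ccr7 and Ccr9.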

How the data were processed

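For each of 24 arrays the authors deposited Feature Extraction output, which gives a Cy5 and a Cy3 intensity for 62976 spots (version 11.5.1.1 per the file headers; the paper names another version). These intensities were already background-subtracted and dye-normalized within each array by the software. A second deposited file holds log2 Cy5/Cy3 ratios made from them. At least 99.8% of its values per array were within 0.01 of the log2 ratios computed here. Cy5 was the thymocyte RNA on every array, without dye swaps. Samples were grouped by the sex and treatment in their labels, and 0 columns of values were left unmatched.

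Control spots and 183 to 368 outlier spots per array were dropped (0 spots were saturated) and the spots of a probe were averaged, which gave 55681 probes. Names came through the accessions from RefSeq's gene list of GRCm38.p6. The annotation of the arrays is older, so this list gave names only, and the promoter coordinates are RefSeq's own. The fit had 8 group means in limma 3.58.1, run in R 4.3.3 (16 residual and 1.63 prior degrees of freedom), with Benjamini-Hochberg adjustment over all probes. Contrasts were averaged over the sexes, taken within each sex, and taken between the sexes. Gene lists used 1 probe per gene, the brightest in Cy5, and are described by counts and medians. The rule for naming genes took the called gene of the largest change in each direction of a list and, for each member well above background in Cy5 on 24 arrays, the 2 genes with the highest Pearson r. Other genes of the lists were named after their values were seen. A gene counted in the lists is not reported here by name. The members, lists and tests were chosen with earlier results of these data known. Other tools were the R package data.table (version 1.17.8), Python 3.11.15, pandas 2.3.3 and matplotlib 3.10.9.

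Replicates of one group correlated at r = 0.802 to 0.914 across probes. Equal replicate numbers did not pair samples: deviations from group means correlated at −0.164 to 0.222, and 80 of 84 pairs were under 0.1. Alternatives were normexp (offset 50) with loess, Cy5 alone scaled to its 75th percentile, Aquantile, the deposited table, no dim probes, a log2 change over 1.5, outlying values left out in 2 ways, the slide or the replicate number as a block, and each array left out.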

Additional observations from a re-analysis of the deposited data

How the results depend on the processing

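The rise of S1pr1, Klf2 and Ccr7 and the fall of Cd24a with RAR kept their direction in all alternatives run. The higher cut-off, the removal of dim probes and Aquantile left the ratios of these genes as they were. Those settings therefore could not turn a direction, and the deposited table holds nearly the same ratios. With a log2 change over 1.5 in place of 1.5-fold, 0 members were called after high dose or RAR, or between RAR and either single dose. Of the 55681 probes 807 were then called after high dose, 2924 under RAR, and 471 and 469 for RAR against high and low dose. Normexp with loess left 1 call after high dose (S1pr1), lost Cd24a under RAR (−0.55), and turned Il7r to 0.25 against high dose and 0.36 against low dose and Cd5 to 0.01 against low dose. It called 2910 of all probes after high dose and 7234 under RAR. Cy5 alone gave 1 call after low dose, 1 after high dose (Cd5 in both) and 7 under RAR, with 3 for RAR against high dose (S1pr1, Klf2 and Ccr9) and 2 against low dose (Ccr9 and Cd24a, with Ccr7, S1pr1 and Klf2 lost). Of all 55681 probes it called 5980, 8889, 26431, 11909 and 8995 in these comparisons, in the same order. It turned Ccr9 to −0.20 after low dose, −0.31 after high dose and −0.97 under RAR, and to −0.66 and −0.77 for RAR against high and low dose. It turned Foxp3 to 0.27, 0.51 and 0.59 against control and 0.31 for RAR against low dose, and Il7r to 0.18 and 0.35 for RAR against high and low dose.

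Values over 1 log2 unit from the others left out gave 1 call after low dose, 1 between RAR sexes, 1 in the sex difference against control (Il7r in these 3) and 1 in the interaction, with Il7r at −0.09 after high dose and −0.47 under RAR. Of all 55681 probes 10781, 5755, 4369 and 9688 were called in the comparisons with a call, in the same order. Dropping from each group its farthest value, which narrows the spread by construction, gave 3 calls after low dose, 5 for RAR against low dose, 1 between RAR sexes, 2 in the sex difference against control, 1 in that against low dose and 5 in the interaction. Of all 55681 probes it called 11687, 12145, 10379, 11870, 11411 and 33644 in these comparisons, in the same order. It put Il7r at −0.46 under RAR, Foxp3 at −0.16 for RAR against high dose and Cd5 at 0.02 against low dose. The slide as a block put Foxp3 at 0.08 after high dose, 0.10 under RAR and 0.19 for RAR against low dose, Cd69 at 0.14 under RAR and Cd5 at 0.05 for RAR against low dose. Female RAR 2 and 3 left out, added after seeing the data, gave 1 call for RAR against high dose (Klf2), with Il7r at 0.14 and Foxp3 at −0.11. In that comparison 4337 of all probes were called.

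Leaving out each array in turn gave 0 to 1 calls after low dose, 1 to 2 after high dose, 4 to 5 under RAR, 2 to 2 for RAR against high dose and 2 to 3 against low dose. The values that turned ran from −0.23 to 0.37 for Il7r under RAR, from −0.09 to 0.09 for Foxp3 against high dose, and from −0.05 to 0.02 for Cd5 against low dose. With the replicate block the calls were 0 after low dose, 2 after high dose, 4 under RAR, 2 for RAR against high dose, 3 against low dose and 0 in each sex contrast, so it changed no count. Causes were not tested. Aquantile keeps the ratios and gave equal values by construction. Calls higher were 71.4%, 68.6%, 85.8% and 82.2% with normexp and loess and 58.2%, 60.3%, 84.2% and 73.6% with Cy5 alone for low dose, high dose, RAR against high dose and RAR against low dose, against 51.3%, 51.1%, 55.6% and 52.7% by ratio. Dim reference signal limits Il7r, and 3 arrays a group limit all comparisons.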
